A study of Mus musculus with 18 samples.

Results

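The interferon-inducible GTPases described here are 10 genes, taken by name from a table of 18683 mouse genes. They are 4 guanylate-binding proteins (Gbp2, Gbp3, Gbp5, Gbp7) and 6 immunity-related GTPases (Igtp, Irgm1, Irgm2, Iigp1, Ifi47, Tgtp1). All 10 were in the table and all 10 passed the filter on low values in every fit. The deposited annotation gave the term GTPase activity to 10 of the 10 genes, cellular response to interferon-beta to 8, cellular response to interferon-gamma to 5 and defense response to protozoan to 5.

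Both families are switched on by interferons. Interferon-gamma acts on promoters through GAS elements and induces IRF1, and type I interferons act through a complex that contains IRF9 and binds ISRE elements. The proteins hydrolyse GTP and load onto membranes around intracellular pathogens, where guanylate-binding proteins also help inflammasomes to form. In the brain, microglia, astrocytes, endothelium and neurons can all express these genes after exposure to interferon. In mice the IRGM proteins (Irgm1, Irgm2 and Igtp) are known as regulators that keep the effector GTPases (Iigp1, Ifi47 and Tgtp1) off the cell's own membranes.

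The study profiled hippocampus and prefrontal cortex by bulk RNA-seq in male mice of 3 kinds, with 3 libraries per kind and tissue and 18 in all. The 5xFAD HM-EVs mice were injected intravenously with vesicles isolated from human breast milk, the 5xFAD PBS mice were 5xFAD mice given phosphate-buffered saline by the same route, and the wildtype PBS mice were C57BL/6J mice given saline. Injections were given 10 times, 3 days apart, between 5 and 6 months of age, and the mice were perfused after behavioural tests. The 5xFAD line models amyloid pathology with mutant human transgenes of familial Alzheimer's disease under the mouse Thy1 promoter, which is active mainly in neurons. No group of wildtype mice given vesicles was analysed here, so the vesicle comparison stands within 5xFAD mice only. The labels do not state whether each library comes from its own mouse, so the p-values reflect the variation among these libraries alone, which may be technical.

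The promoter stretches below show the interferon-response letters that 8 of the 9 genes with a window share, with the match to the ISRE core GAAANNGAAA (either strand) in capitals. Each is written on the strand of its gene, 5′ to 3′, and comes from RefSeq on GRCm38.p6, a build that differs from the GRCm39 build of the expression files. The guanylate-binding protein genes lie together on chromosome 3 and carried the match on the opposite strand, so that it reads TTTC in both blocks. The immunity-related GTPase genes shown lie on chromosome 11 and carried it on their own strand.
Gbp2 (chr3:142620589-142620628, + strand): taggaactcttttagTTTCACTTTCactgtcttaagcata
Gbp3 (chr3:142559984-142560029, + strand): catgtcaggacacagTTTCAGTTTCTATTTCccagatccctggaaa
Gbp5 (chr3:142496754-142496793, + strand): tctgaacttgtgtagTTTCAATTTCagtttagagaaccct
Gbp7 (chr3:142530268-142530307, + strand): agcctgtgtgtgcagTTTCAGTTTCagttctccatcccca
Igtp (chr11:58199507-58199546, + strand): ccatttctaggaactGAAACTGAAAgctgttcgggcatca
Irgm1 (chr11:48871421-48871465, - strand): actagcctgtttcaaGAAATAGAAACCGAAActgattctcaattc
Irgm2 (chr11:58214898-58214937, + strand): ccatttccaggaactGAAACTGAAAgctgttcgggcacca
Tgtp1 (chr11:48992299-48992338, - strand): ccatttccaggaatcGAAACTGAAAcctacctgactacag

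The ISRE core was present in 3.44% of all 32851 mouse promoter windows of 300 bases searched in the same way. Gbp3 and Irgm1 each held a pair of overlapping matches. The GAS motif TTCNNNGAA was found in 5 of the 9 genes (Gbp5, Gbp7, Igtp, Irgm2 and Tgtp1), against 8.3% of all windows. In Igtp, Irgm2 and Tgtp1 the GAS motif began 11 bases before the ISRE core. Of these GTPases, Tgtp1 had the largest genotype difference in hippocampus, given below. The pair is seen in the stretch just upstream of Tgtp1, shown here with both motifs in capitals.
Tgtp1 (chr11:48992247-48992496, - strand): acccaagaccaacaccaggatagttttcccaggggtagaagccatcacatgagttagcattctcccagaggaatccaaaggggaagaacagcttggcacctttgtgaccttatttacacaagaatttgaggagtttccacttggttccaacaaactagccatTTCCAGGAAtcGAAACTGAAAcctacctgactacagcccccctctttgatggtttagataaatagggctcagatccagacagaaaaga

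Ifi47 had a window with neither motif, and Iigp1 had none in the table used. A match of letters is a description of the window and does not show that a factor binds there. The map of motif positions gives the distance of each match from the start site.

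**Figure D1:**
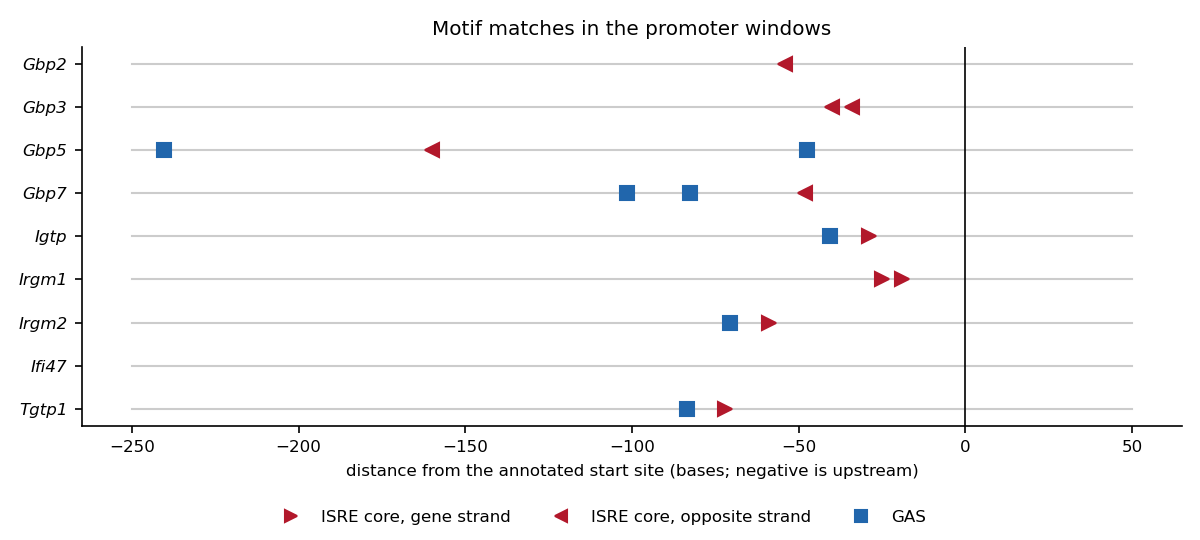
Positions of the ISRE core and GAS matches in the promoter windows of 9 interferon-inducible GTPase genes, with distance from the annotated start site in bases on the horizontal axis and 1 row per gene. ISRE matches lie within the 100 bases before the start site in 7 genes and farther upstream in Gbp5, and Ifi47 has no match.

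The libraries held 26437852 to 36901744 reads in the listed genes, as recovered from the deposited FPKM values (fragments scaled by gene length and library size). The 10 genes were covered by 20 to 2165 reads per library, the lowest being Tgtp1 in a wildtype PBS hippocampus and the highest Irgm1 in a 5xFAD PBS hippocampus. Markers of hippocampal neurons summed to 51.7 to 66.6 FPKM in the hippocampal libraries and to 2.32 to 5.85 FPKM in the prefrontal ones, as the tissue labels say. In hippocampus, markers of neocortical neurons summed to 28.2 to 56.1 FPKM in 5xFAD HM-EVs and 28.1 to 40.1 FPKM in 5xFAD PBS mice. In prefrontal cortex they summed to 79.6 to 148 and 124 to 128 FPKM, respectively. Wildtype PBS sums were 36.7 to 56.1 FPKM in hippocampus and 120 to 137 FPKM in prefrontal cortex. Of the 5xFAD HM-EVs libraries, replicate 3 had the highest hippocampal and lowest prefrontal sum. The part of this spread in the GTPase values was not tested. Thy1, whose promoter drives the transgenes, averaged 1306 and 1232 FPKM in 5xFAD HM-EVs and 5xFAD PBS hippocampus, against 465 FPKM in wildtype PBS hippocampus. The choroid plexus, a secretory tissue that lies beside the hippocampus, left a variable signal: its 8 markers summed to 187 to 5706 FPKM in 5xFAD HM-EVs, 2620 to 8917 FPKM in 5xFAD PBS and 35.6 to 169 FPKM in wildtype PBS hippocampus.

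All 10 genes were expressed at low to moderate levels. Compared per length, Irgm1 had the highest mean FPKM of the 10 in every group of both tissues. In 5xFAD PBS hippocampus it averaged 16.8 ± 6.1 FPKM (SD, n = 3), followed by Igtp at 12.7 ± 11.4 FPKM and Gbp2 at 10.3 ± 5.9 FPKM (SD, n = 3). The libraries of these 3 genes overlapped, and the order of the 3 means was not tested. Ifi47 and Gbp7 were the lowest there, at 1.97 ± 0.62 and 1.81 ± 0.49 FPKM (SD, n = 3). In wildtype PBS hippocampus the 10 means ran from 0.393 FPKM for Tgtp1 to 5.08 FPKM for Irgm1.

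**Figure D2:**
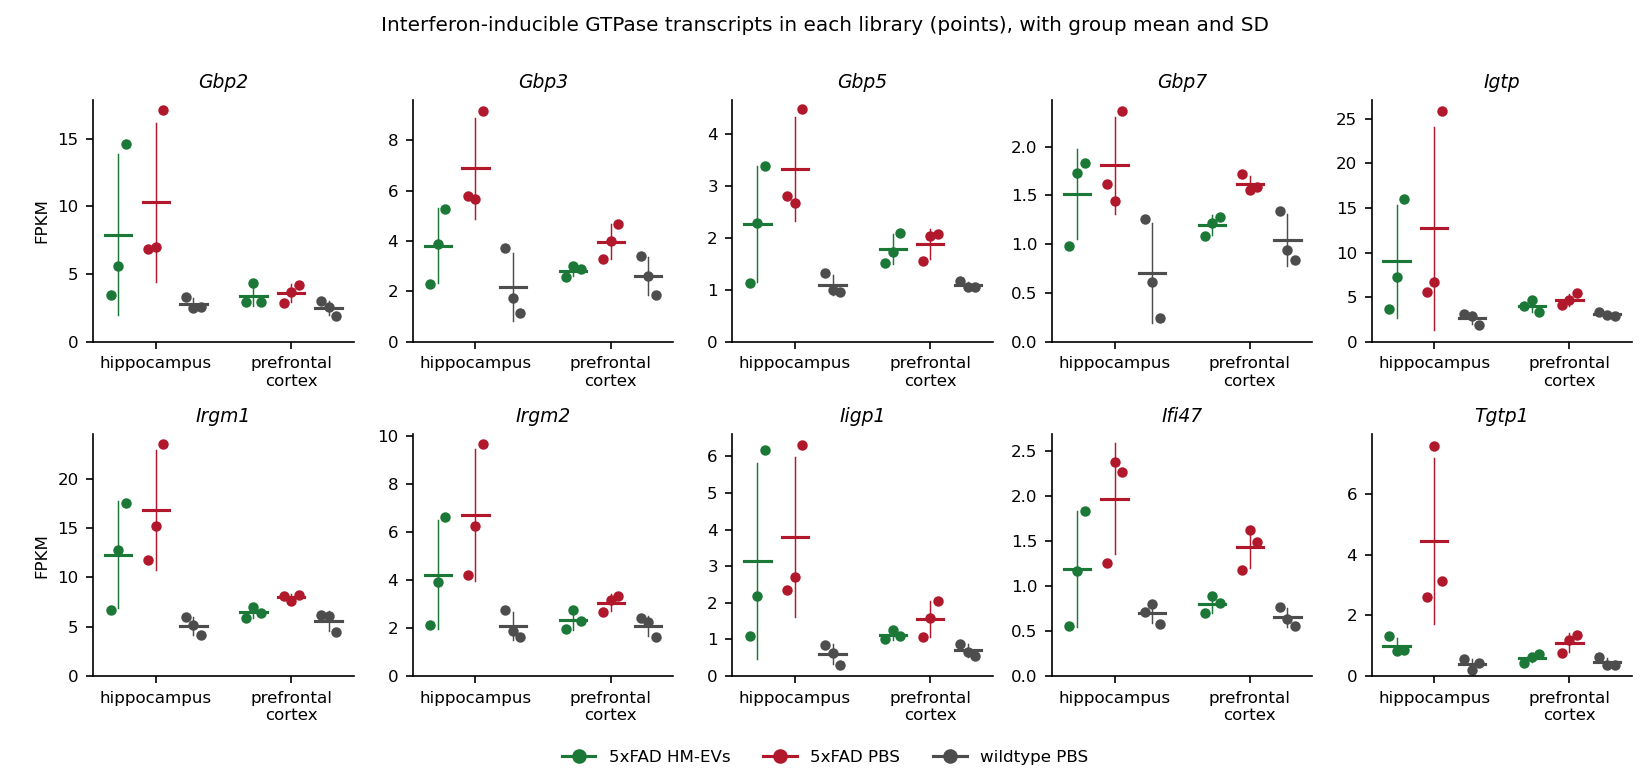
FPKM of each of the 10 interferon-inducible GTPases in every library, with points for libraries, horizontal lines for group means and vertical lines for ± SD, for hippocampus and prefrontal cortex and the 5xFAD HM-EVs, 5xFAD PBS and wildtype PBS groups. Every 5xFAD PBS hippocampal point lies above every wildtype PBS hippocampal point for each gene, and the prefrontal groups lie closer together.

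In the hippocampus, all 10 GTPases had higher values in every 5xFAD PBS library than in any wildtype PBS library, with ratios of means from 2.57 for Gbp7 to 11.3 for Tgtp1. Gbp3, Gbp5, Irgm1 and Tgtp1 rose at an adjusted p under 0.05 (limma on log2(FPKM + 0.5), adjusted over all 13305 genes tested). The other 6 did not pass, with adjusted p from 0.0596 to 0.135. As background, 4.19% of all genes tested were called higher in this comparison and 16.5% were higher without overlap. The median difference of the 10 genes was 1.56 on the log2 scale, against 0.02 over all genes tested.

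Among the guanylate-binding proteins, Gbp3 had 5.78, 5.69 and 9.18 FPKM in 5xFAD PBS hippocampus and 3.71, 1.73 and 1.14 FPKM in wildtype PBS hippocampus. The groups were separate, although the highest wildtype library stood at over 3 times the lowest, and the log2 difference was 1.54 ± 0.36 (SE; adjusted p = 0.043). Gbp5, which in mice promotes assembly of the NLRP3 inflammasome, had 2.82, 2.67 and 4.48 FPKM in 5xFAD PBS hippocampus, against 1.32, 0.996 and 0.958 FPKM in wildtype PBS hippocampus. Its values were tight in wildtype mice, and the log2 difference was 1.24 ± 0.29 (SE; adjusted p = 0.0428).

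Gbp2, which coats the vacuole of the parasite Toxoplasma in mouse cells, had 6.87, 6.99 and 17.1 FPKM in 5xFAD PBS hippocampus and 3.30, 2.51 and 2.55 FPKM in wildtype PBS hippocampus. A single 5xFAD PBS library stood far above the other two, and the log2 difference of 1.60 ± 0.46 (SE) did not pass (adjusted p = 0.0933). Gbp7 had 1.61, 1.44 and 2.37 FPKM in 5xFAD PBS and 1.25, 0.610 and 0.242 FPKM in wildtype PBS hippocampus, and its log2 difference of 1.01 ± 0.31 (SE) did not pass (adjusted p = 0.106).

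Of the IRGM regulators, Irgm1 had 11.7, 15.2 and 23.5 FPKM in 5xFAD PBS hippocampus, against 5.96, 5.15 and 4.14 FPKM in wildtype PBS hippocampus. The lowest 5xFAD PBS value was well above the highest wildtype value, with a log2 difference of 1.59 ± 0.33 (SE; adjusted p = 0.0254). Igtp, also known as Irgm3, had 5.58, 6.71 and 25.9 FPKM in 5xFAD PBS and 3.09, 2.92 and 1.87 FPKM in wildtype PBS hippocampus. The spread among its 5xFAD PBS libraries was the widest of the 10 genes, and its log2 difference of 1.77 ± 0.58 (SE) did not pass (adjusted p = 0.135). Irgm2 had 4.22, 6.24 and 9.66 FPKM in 5xFAD PBS hippocampus and 2.74, 1.87 and 1.61 FPKM in wildtype PBS hippocampus, a log2 difference of 1.44 ± 0.37 (SE; adjusted p = 0.0596).

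Of the effectors, Tgtp1 (also called Irgb6) had 2.60, 7.59 and 3.12 FPKM in 5xFAD PBS hippocampus, against 0.546, 0.198 and 0.434 FPKM in wildtype PBS hippocampus. Its lowest 5xFAD PBS value was several times its highest wildtype value, and its log2 difference of 2.35 ± 0.33 (SE) was the largest of the 10 (adjusted p = 0.0033). Iigp1 (Irga6), a GTPase of the pathogen vacuole, had 2.36, 2.71 and 6.31 FPKM in 5xFAD PBS and 0.858, 0.635 and 0.303 FPKM in wildtype PBS hippocampus. One 5xFAD PBS library stood above the rest and the ratio of means was 6.34, and the log2 difference of 1.89 ± 0.50 (SE) did not pass (adjusted p = 0.0667). Ifi47 (Irgd) had 1.26, 2.38 and 2.27 FPKM in 5xFAD PBS and 0.716, 0.803 and 0.578 FPKM in wildtype PBS hippocampus, with a log2 difference of 1.01 ± 0.28 (SE; adjusted p = 0.0823).

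The hippocampal calls for Gbp3, Gbp5 and Irgm1 depended on single libraries, while Tgtp1 was called whichever of the 6 libraries was left out, with log2 differences of 1.93 to 2.62 and adjusted p of 0.0031 to 0.0188. The number of the 10 genes called was 3 without wildtype PBS replicate 1, 2 without 5xFAD PBS replicate 1, and 1 without any single one of wildtype PBS replicates 2 and 3 and 5xFAD PBS replicates 2 and 3. Gbp3 kept its call only without wildtype PBS replicate 1 and Irgm1 only without 5xFAD PBS replicate 1, and Gbp5 lost it in each case, with adjusted p of 0.0739 to 0.142. Other settings also moved the count: it was 1 (Tgtp1) with no filter on low values, 2 (Irgm1 and Tgtp1) under quantile normalization and 8 (all but Gbp7 and Igtp) with only the 2 groups in the fit. Gbp5 was not called by voom (adjusted p = 0.0581), nor Gbp3 with the replicate block (adjusted p = 0.0894). For these settings the shares of all genes called are not given here.

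Tgtp1 shares most of its sequence with its neighbour Tgtp2: 81.2% of the 50-base pieces of its transcripts also occur in transcripts of other genes, Tgtp2 among them, against 0.38% to 12.7% for the other 9. How the authors' counting divided such reads is not given in the sources used here, so the split between both genes is uncertain. Tgtp2 had 1.54, 1.98 and 3.52 FPKM in 5xFAD PBS hippocampus and 0.642, 0.435 and 0.594 FPKM in wildtype PBS hippocampus (log2 difference 1.37 ± 0.42 (SE), adjusted p = 0.113). The summed FPKM of both genes was 4.14, 9.56 and 6.65 in 5xFAD PBS hippocampus and 1.19, 0.634 and 1.03 in wildtype PBS hippocampus, so the groups stayed apart when the genes were added up.

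In the prefrontal cortex, the same genotype comparison gave smaller differences. Ifi47 was the only 1 of the 10 genes called higher in 5xFAD PBS mice, against a background of 1.82% of 13055 genes tested. For 8 of the 10, all but Gbp2 and Gbp3, every 5xFAD PBS value lay above every wildtype PBS value, where 9.75% of all genes did so. The median log2 difference of the 10 was 0.54, with a range of 0.45 to 0.76, against 0.02 over all genes tested.

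Ifi47 had 1.18, 1.63 and 1.49 FPKM in 5xFAD PBS prefrontal cortex and 0.763, 0.634 and 0.560 FPKM in wildtype PBS prefrontal cortex. The groups were well separated, with a ratio of means of 2.19 and a log2 difference of 0.74 ± 0.13 (SE; adjusted p = 0.0169). The call was lost without wildtype PBS replicate 2 or 3 or without 5xFAD PBS replicate 2 or 3, where the adjusted p was 0.0556 to 0.0848, and under quantile normalization (adjusted p = 0.0755). Without 5xFAD PBS replicate 1, 3 of the 10 genes were called, Iigp1 and Tgtp1 being the others, and the share of all genes called then is not given here.

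The other prefrontal differences were close in size but did not pass. Iigp1 had 1.06, 1.58 and 2.04 FPKM in 5xFAD PBS and 0.885, 0.653 and 0.555 FPKM in wildtype PBS prefrontal cortex (log2 difference 0.76 ± 0.18 (SE), adjusted p = 0.0764). Tgtp1 had 0.751, 1.19 and 1.35 FPKM in 5xFAD PBS and 0.627, 0.352 and 0.362 FPKM in wildtype PBS prefrontal cortex (0.75 ± 0.18 (SE), adjusted p = 0.086). Gbp5 had 1.56, 2.03 and 2.08 FPKM in 5xFAD PBS and 1.17, 1.06 and 1.05 FPKM in wildtype PBS prefrontal cortex (0.58 ± 0.13 (SE), adjusted p = 0.0654). In Iigp1 and Tgtp1 the lowest 5xFAD PBS library lay only slightly above the highest wildtype library. In Gbp5 the gap was wider, between 1.56 and 1.17 FPKM.

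Igtp averaged 4.74 ± 0.67 FPKM in 5xFAD PBS and 3.08 ± 0.24 FPKM in wildtype PBS prefrontal cortex (SD, n = 3 each). Irgm1 averaged 7.97 ± 0.33 FPKM in 5xFAD PBS and 5.57 ± 0.99 FPKM in wildtype PBS prefrontal cortex (SD, n = 3 each). Irgm2 averaged 3.04 ± 0.35 FPKM in 5xFAD PBS and 2.09 ± 0.41 FPKM in wildtype PBS prefrontal cortex (SD, n = 3 each). For these 3 regulators the adjusted p was 0.0986, 0.107 and 0.313. Gbp2, Gbp3 and Gbp7 had log2 differences of 0.45, 0.54 and 0.47, with adjusted p of 0.544, 0.313 and 0.173.

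**Figure D3:**
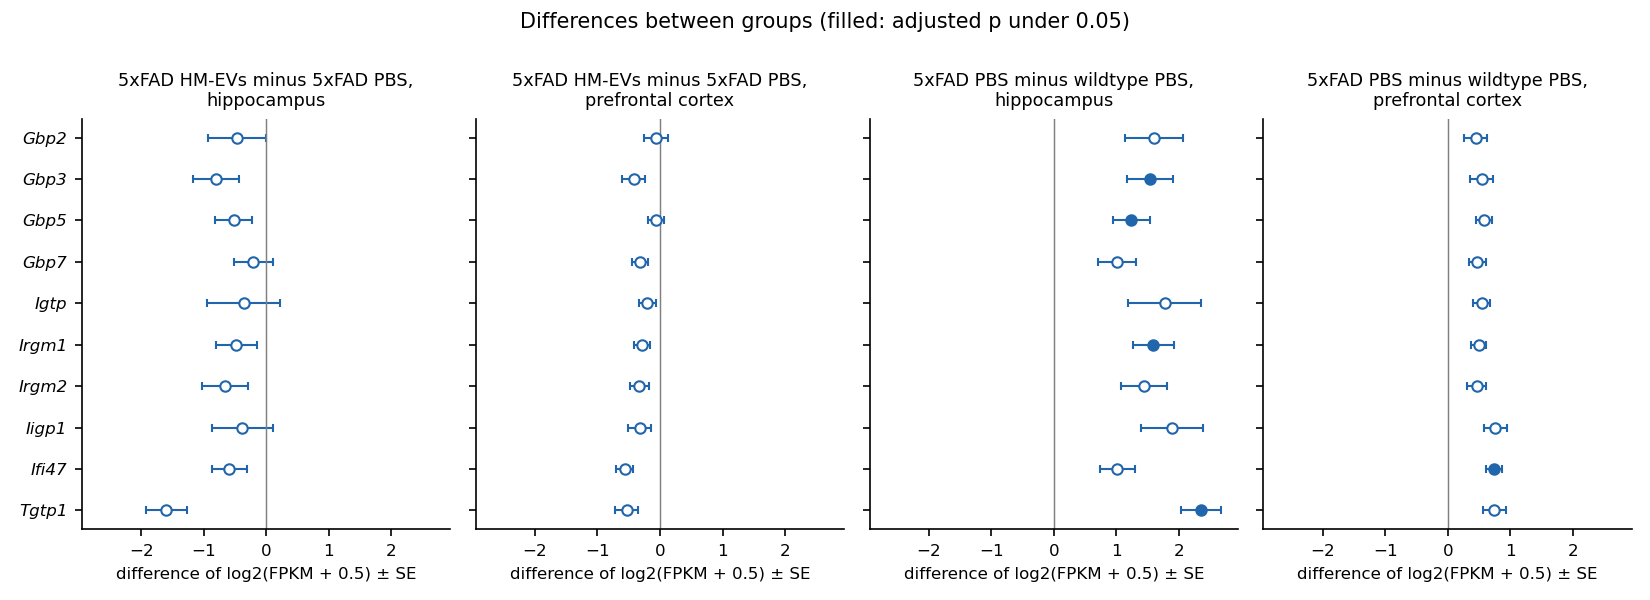
Difference in log2(FPKM + 0.5) ± SE between groups for each of the 10 genes, by comparison and tissue, with filled points where the adjusted p was under 0.05. The 5xFAD PBS minus wildtype PBS differences lie between 1.01 and 2.35 in hippocampus and between 0.45 and 0.76 in prefrontal cortex, and no filled point appears among the vesicle differences.

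The tissues themselves were compared in a fit over all 18 libraries. The labels do not state whether equal replicate numbers in both tissues mark the same mouse. This fit, also used for the interactions below, had no block for such pairs. In 5xFAD PBS mice, Gbp2, Irgm1, Irgm2 and Tgtp1 were called higher in hippocampus than in prefrontal cortex, where 15.3% of 13574 genes tested were called higher. All 10 differences were above 0, with a median of 0.97 on the log2 scale against 0.06 over all genes. Tgtp1 again differed most, at 4.44 ± 2.74 FPKM in hippocampus and 1.1 ± 0.31 FPKM in prefrontal cortex (SD, n = 3 each), a log2 difference of 1.51 ± 0.28 (SE; adjusted p = 0.0011). The log2 difference of Gbp2 was 1.29 ± 0.39 (SE; adjusted p = 0.0221), that of Irgm1 0.98 ± 0.27 (SE; adjusted p = 0.0148) and that of Irgm2 0.96 ± 0.30 (SE; adjusted p = 0.0294). Without hippocampal 5xFAD PBS replicate 3 the count was 1, and without prefrontal 5xFAD PBS replicate 1 it was 2. Tgtp1 was called in both. The shares of all genes called with a library left out are not given here. Irgm2 kept its call only without hippocampal 5xFAD PBS replicate 1, and had an adjusted p of 0.0557 to 0.131 without any other single 5xFAD PBS library and of 0.0511 under quantile normalization. Gbp2 lost its call without prefrontal replicate 1 (adjusted p = 0.085) and hippocampal replicate 3 (0.105), and Irgm1 without hippocampal replicate 3.

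In wildtype PBS mice none of the 10 genes was called higher in hippocampus, where 8.72% of genes tested were, and the differences ran from -0.43 for Gbp7 to 0.14 for Gbp2 with a median of -0.11. None of the 10 reached an unadjusted p under 0.05 there, and voom on the recovered reads called none. Without hippocampal wildtype PBS replicate 1, Gbp7 was called lower in hippocampus, with a log2 difference of -0.75 (adjusted p = 0.0319). In 5xFAD HM-EVs mice all 10 differences were above 0 with a median of 0.54, and none was called against a background of 8.6%, although 3 of the 10 had an unadjusted p under 0.05, as did 4006 of the 13574 genes. Irgm1 came nearest, at 12.3 ± 5.4 FPKM in hippocampus and 6.44 ± 0.56 FPKM in prefrontal cortex (SD, n = 3 each), with an adjusted p of 0.0576. Without hippocampal 5xFAD HM-EVs replicate 1, 4 of the 10 (Gbp2, Irgm1, Irgm2 and Iigp1) were called in these mice. The share of all genes called in that setting is not given here.

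**Figure D4:**
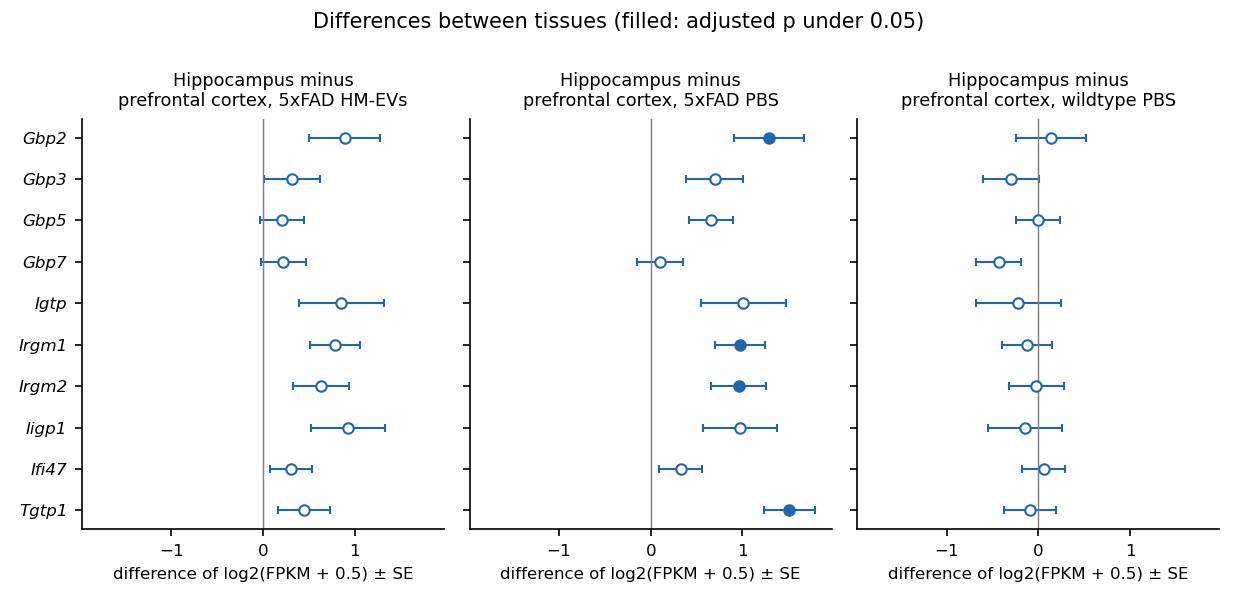
Difference in log2(FPKM + 0.5) ± SE between hippocampus and prefrontal cortex for each of the 10 genes in 5xFAD HM-EVs, 5xFAD PBS and wildtype PBS mice, with filled points where the adjusted p was under 0.05. The 4 filled points are Gbp2, Irgm1, Irgm2 and Tgtp1 in 5xFAD PBS mice, and the wildtype points scatter around 0.

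The difference of the genotype difference between tissues was tested as an interaction. It was above 0 for all 10 genes, from 0.27 for Ifi47 to 1.61 ± 0.40 (SE) for Tgtp1, with a median of 1.05 against 0.01 over all genes. The adjusted p for Tgtp1 was 0.53 and no gene of the 13574 was called (0%), so the larger hippocampal differences are not shown to differ from the prefrontal ones. At an unadjusted p under 0.05 there were 787 genes, among them 4 of the 10 (Gbp3, Irgm1, Irgm2 and Tgtp1), and voom on the recovered reads also called 0 genes.

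Vesicle treatment was compared with saline within 5xFAD mice. All 10 GTPases had lower means in 5xFAD HM-EVs than in 5xFAD PBS mice in both tissues. However, limma called none of the genes tested (0% of 13305 in hippocampus and 0% of 13055 in prefrontal cortex). At an unadjusted p under 0.05 there were 519 genes in hippocampus, 1 of the 10 among them, and 616 in prefrontal cortex, 5 of the 10 among them; voom also called 0 genes in each tissue. The median log2 difference of the 10 was -0.50 in hippocampus and -0.32 in prefrontal cortex, against -0.02 and 0.02 over all genes tested. This comparison and the genotype comparison use the same 5xFAD PBS libraries, so their values for a gene are not independent. Some directions rest on 1 library: without 5xFAD HM-EVs replicate 1 the hippocampal log2 differences of Gbp7, Igtp and Iigp1 were 0.0034, 0.12 and 0.094, and without 5xFAD PBS replicate 3 those of Igtp and Iigp1 were 0.30 and 0.01. In prefrontal cortex Gbp2 stood at 0.043, 0.015 and 0.016 without 5xFAD PBS replicate 3, 5xFAD HM-EVs replicate 1 or 5xFAD HM-EVs replicate 3, and Gbp5 at 0.019 without 5xFAD HM-EVs replicate 1.

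Tgtp1 had the largest vesicle difference of the 10 in hippocampus. It stood at 1.31, 0.839 and 0.848 FPKM in 5xFAD HM-EVs hippocampus, against 2.60, 7.59 and 3.12 FPKM in 5xFAD PBS hippocampus. The groups did not overlap and the ratio of means was 0.225, with a log2 difference of -1.60 ± 0.33 (SE), an unadjusted p of 6.9e-04 and an adjusted p of 0.867. Tgtp2 had a log2 difference of -0.57, with 0.470, 1.22 and 3.24 FPKM in 5xFAD HM-EVs and 1.54, 1.98 and 3.52 FPKM in 5xFAD PBS hippocampus, which overlap. Added up, both genes had 1.78, 2.06 and 4.09 FPKM in 5xFAD HM-EVs hippocampus and 4.14, 9.56 and 6.65 FPKM in 5xFAD PBS hippocampus, so the gap between the groups nearly closed.

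Gbp3 was the other gene without overlap in the hippocampal vesicle comparison, making 2 of the 10, where 5.21% of all genes were lower without overlap. It had 2.29, 3.9 and 5.26 FPKM in 5xFAD HM-EVs and 5.78, 5.69 and 9.18 FPKM in 5xFAD PBS hippocampus, a log2 difference of -0.80 ± 0.36 (SE; adjusted p = 0.867). The remaining 8 genes overlapped. Irgm1 had 6.66, 12.8 and 17.5 FPKM in 5xFAD HM-EVs hippocampus and Igtp had 3.73, 7.31 and 16.0 FPKM there. Gbp2 had 3.50, 5.59 and 14.7 FPKM and Iigp1 had 1.08, 2.19 and 6.17 FPKM in the same libraries. In each of these genes replicate 3 reached into the 5xFAD PBS range and replicate 1 lay near the wildtype PBS range.

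In the prefrontal cortex, 5 of the 10 (Gbp3, Gbp7, Irgm1, Ifi47 and Tgtp1) were lower without overlap after vesicles, where 3.94% of all genes were. Ifi47 had 0.699, 0.892 and 0.810 FPKM in 5xFAD HM-EVs and 1.18, 1.63 and 1.49 FPKM in 5xFAD PBS prefrontal cortex (log2 difference -0.57 ± 0.13 (SE), adjusted p = 0.822). Tgtp1 had 0.442, 0.629 and 0.713 FPKM in 5xFAD HM-EVs and 0.751, 1.19 and 1.35 FPKM in 5xFAD PBS prefrontal cortex (-0.53 ± 0.18 (SE), adjusted p = 0.822). Irgm1 had 5.90, 7.02 and 6.41 FPKM in 5xFAD HM-EVs and 8.09, 7.59 and 8.23 FPKM in 5xFAD PBS prefrontal cortex (-0.29 ± 0.13 (SE), adjusted p = 0.822). The gap between the groups was clear in Ifi47 and narrow in Tgtp1 and Irgm1.

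Gbp3 had 2.58, 2.99 and 2.90 FPKM in 5xFAD HM-EVs prefrontal cortex, against 3.27, 4.0 and 4.67 FPKM in 5xFAD PBS prefrontal cortex. Gbp7, which in mouse macrophages helps to assemble the NADPH oxidase, had 1.09, 1.22 and 1.28 FPKM in 5xFAD HM-EVs, against 1.71, 1.55 and 1.58 FPKM in 5xFAD PBS prefrontal cortex. Gbp2 and Gbp5 were level between the groups, with log2 differences of -0.07 each. Igtp, Irgm2 and Iigp1 had log2 differences of -0.20, -0.33 and -0.33, with overlap.

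The vesicle difference was also compared between tissues. Tgtp1 had an interaction of -1.07 ± 0.40 (SE; adjusted p = 0.992), and the other 9 ran from -0.45 to 0.12, with a median over the 10 of -0.26 against -0.05 over all genes. No gene was called (0%), and 680 had an unadjusted p under 0.05, Tgtp1 alone among the 10; voom called 0 genes.

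Set against wildtype PBS mice, the vesicle-treated 5xFAD mice had means above wildtype for all 10 genes in both tissues, though under quantile normalization the prefrontal log2 difference of Gbp3, Gbp7, Irgm2 and Ifi47 was below 0, between -0.05 and -0.03. None of the 10 was called. Of all genes tested, 1.93% were called higher in hippocampus and 1.4% in prefrontal cortex. In hippocampus 5 of the 10 (Gbp2, Igtp, Irgm1, Iigp1 and Tgtp1) were higher without overlap, against 10.7% of all genes, and 7 had an unadjusted p under 0.05, as did 1642 of 13305 genes. The median log2 difference there was 0.79, against 0.00 over all genes. Irgm1 averaged 12.3 ± 5.4 FPKM in 5xFAD HM-EVs and 5.08 ± 0.91 FPKM in wildtype PBS hippocampus (SD, n = 3 each), a log2 difference of 1.11 ± 0.33 (SE; adjusted p = 0.18). It was called only without 5xFAD HM-EVs replicate 1, with an adjusted p of 0.032.

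In prefrontal cortex the same comparison gave a median log2 difference of 0.21, against 0.05 over all genes. Gbp5, Igtp and Iigp1 were higher without overlap, 3 of the 10 where 13.6% of all genes were, and the same number had an unadjusted p under 0.05, as did 1959 of 13055 genes. Gbp5 came nearest to a call, with 1.52, 1.74 and 2.09 FPKM in 5xFAD HM-EVs and 1.17, 1.06 and 1.05 FPKM in wildtype PBS prefrontal cortex (log2 difference 0.51 ± 0.13 (SE), adjusted p = 0.108). Without wildtype PBS replicate 3 the log2 differences of Gbp3 and Irgm2 were below 0, at -0.069 and -0.0042. Voom called none of the 10 in either tissue in this comparison.

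The 10 genes moved together from library to library. Pearson correlations between pairs of genes over the 18 libraries ran from 0.534 (Tgtp1 with Gbp7) to 0.978 (Irgm2 with Irgm1), with a median of 0.876 over 45 pairs. The libraries are shared by all pairs and span the groups, so these values describe the set and are not a test. Tgtp1 followed the mean of the other 9 least closely in hippocampus, with r = 0.637 over 9 libraries, against 0.936 over the 9 prefrontal libraries. In hippocampus its highest 5xFAD PBS library was replicate 2, whereas 8 of the 10 genes peaked in replicate 3. The split of reads between Tgtp1 and Tgtp2 is uncertain, and its part in these values was not tested.

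Replicates within a group differed along the whole set. In 5xFAD HM-EVs hippocampus, replicate 3 was the highest library for 9 of the 10 genes and replicate 1 the lowest for 9, and the 10 genes summed to 23.4, 41.7 and 74.2 FPKM in replicates 1, 2 and 3. In 5xFAD PBS hippocampus the sum was 44.8, 57.6 and 104 FPKM, and in wildtype PBS hippocampus it was 23.5, 17.4 and 13.8 FPKM. The 5xFAD HM-EVs libraries therefore ranged from the top wildtype PBS level to above the middle 5xFAD PBS library. In prefrontal cortex the sums were narrower, at 22.2 to 27.6 FPKM in 5xFAD HM-EVs, 27.2 to 34.4 FPKM in 5xFAD PBS and 16.1 to 23.1 FPKM in wildtype PBS mice. Wildtype PBS replicate 1 was the highest of its group for 9 of the 10 genes in hippocampus and for all 10 in prefrontal cortex.

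**Figure D5:**
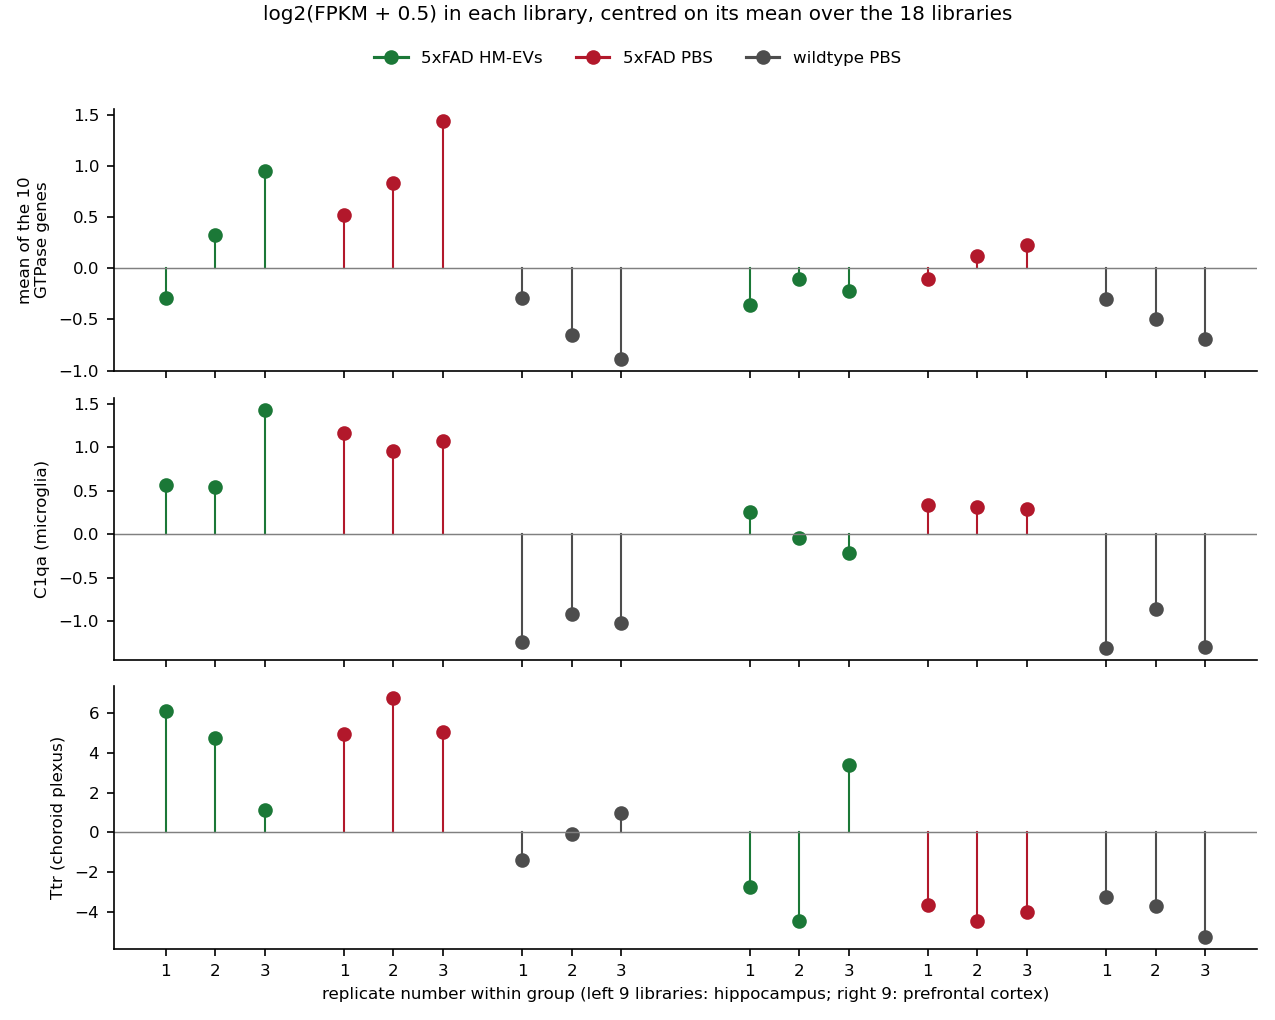
Mean over the 10 GTPases of log2(FPKM + 0.5), centred per gene, with the same scale for the microglial gene C1qa and the choroid plexus gene Ttr in the panels beneath it, and 1 point per library by tissue and group. In the GTPase panel the hippocampal 5xFAD HM-EVs points run from -0.29 to 0.95, the 5xFAD PBS points from 0.52 to 1.44 and the wildtype PBS points from -0.89 to -0.29.

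Cell markers moved with the genotype as well. The 7 microglial markers summed to 496 to 872 FPKM in 5xFAD HM-EVs, 615 to 716 FPKM in 5xFAD PBS and 194 to 227 FPKM in wildtype PBS hippocampus. In prefrontal cortex they summed to 343 to 472 FPKM in 5xFAD HM-EVs, 452 to 468 FPKM in 5xFAD PBS and 188 to 233 FPKM in wildtype PBS mice, and 6 of the 7 were called higher in 5xFAD PBS than in wildtype PBS mice in each tissue. In bulk RNA more cells of a type and more RNA per cell cannot be told apart, and the part of microglia in the GTPase values was not tested. Of the 4 astrocyte markers, 2 were called higher in 5xFAD PBS hippocampus and 1 in 5xFAD PBS prefrontal cortex. None of the 6 endothelial markers was called in either tissue.

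Of the 8 choroid plexus markers, 7 were called higher in 5xFAD PBS than in wildtype PBS hippocampus, with a median log2 difference of 3.71. Their part in the hippocampal genotype values was not tested. In prefrontal cortex the same markers summed to 5.49 to 8.81 FPKM in 5xFAD PBS and 4.84 to 9.62 FPKM in wildtype PBS mice. None of those tested there was called, and Folr1, Kcnj13, Otx2 and Kcne2 were too low to be tested. Within 5xFAD PBS mice the choroid plexus sum thus differed between the tissues as well, and its part in the tissue values was not tested. In 5xFAD HM-EVs prefrontal cortex 1 library, replicate 3, reached 864 FPKM. Among the 5xFAD HM-EVs hippocampal libraries, replicate 1 had the highest choroid plexus sum (5706 FPKM) and the lowest GTPase sum, and replicate 3 had the lowest (187 FPKM) and the highest GTPase sum. Tgtp1 peaked in 5xFAD PBS hippocampal replicate 2, which also had the highest choroid plexus sum, 8917 FPKM. The part of choroid plexus in these library values was not tested.

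T and NK cells are the usual sources of interferon-gamma. Their 10 markers summed to 1.0 to 1.19 FPKM in 5xFAD HM-EVs, 0.952 to 1.71 FPKM in 5xFAD PBS and 0.356 to 0.545 FPKM in wildtype PBS hippocampus. None of the 10 was abundant enough to be tested in hippocampus and Cd4 alone was in prefrontal cortex, and Cd3d, Cd3e and Cd3g, which encode the CD3 complex of T cells, were each at 0.642 FPKM or less in every library. The 5 neutrophil and monocyte markers summed to 0.610 to 2.19 FPKM in 5xFAD HM-EVs, 2.29 to 3.37 FPKM in 5xFAD PBS and 0.189 to 0.891 FPKM in wildtype PBS hippocampus. Of the 2 that were tested in hippocampus, S100a8, a calcium-binding protein of neutrophils, was called higher in 5xFAD PBS than in wildtype PBS mice, at 1.41 ± 0.34 and 0.146 ± 0.070 FPKM (SD, n = 3 each; adjusted p = 8.8e-04). In 5xFAD HM-EVs hippocampus it averaged 0.506 ± 0.084 FPKM (SD, n = 3). In prefrontal cortex the 5 markers summed to 1.24 to 9.67 FPKM in 5xFAD HM-EVs, 1.36 to 2.92 FPKM in 5xFAD PBS and 0.027 to 1.33 FPKM in wildtype PBS mice.

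The 4 markers of border macrophages, which lie along vessels and meninges, summed to 1.35 to 2.35 FPKM in 5xFAD HM-EVs, 3.16 to 4.47 FPKM in 5xFAD PBS and 1.55 to 2.66 FPKM in wildtype PBS hippocampus. The 5xFAD PBS sums thus lay above those of both other groups, as did those of the neutrophil and monocyte markers, although neither of the 2 border macrophage markers tested was called. In prefrontal cortex the border macrophage sums of the 3 groups overlapped. Whether such cells take part in the GTPase values, in the genotype or the vesicle comparison, was not tested.

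Ifng itself, the gene for interferon-gamma, was at 0 in 16 of the 18 libraries, where a count of 0 allows up to 0.0672 to 0.0811 FPKM (3 reads, counting error only). It had 8 reads (0.250 FPKM) in 5xFAD HM-EVs hippocampal replicate 3, which was also the highest library of its group for 9 of the 10 GTPases. It had 1 read in 5xFAD PBS hippocampal replicate 1, the library of its group with the lowest GTPase sum (44.8 FPKM). The library with the highest GTPase sum of the 18 (104 FPKM), 5xFAD PBS hippocampal replicate 3, had 0 reads. Interferon-gamma transcripts were therefore below what this depth can show in most libraries. The part of Ifng in the GTPase values was not tested.

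Irf1, a transcription factor induced by interferon-gamma, averaged 4.72 ± 1.47 FPKM in 5xFAD PBS and 2.44 ± 0.27 FPKM in wildtype PBS hippocampus (SD, n = 3 each; adjusted p = 0.175). In 5xFAD HM-EVs hippocampus Irf1 averaged 4.93 ± 2.50 FPKM (SD, n = 3), and its libraries overlapped those of 5xFAD PBS hippocampus.

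Over the list of 21 interferon signalling genes, 17 were tested in hippocampus and 3 were called higher in 5xFAD PBS mice, with a median log2 difference of 0.38. Irf8, a transcription factor of microglia and other myeloid cells, averaged 7.13 ± 0.80 FPKM in 5xFAD PBS and 1.54 ± 0.40 FPKM in wildtype PBS hippocampus (SD, n = 3 each; adjusted p = 0.0016). Irf9, the DNA-binding part of the complex that type I interferons activate, averaged 8.88 ± 1.78 FPKM in 5xFAD PBS and 4.01 ± 1.22 FPKM in wildtype PBS hippocampus (SD, n = 3 each; adjusted p = 0.0413). Ifnar2, a chain of the type I interferon receptor, averaged 5.07 ± 0.29 FPKM in 5xFAD PBS and 3.03 ± 0.41 FPKM in wildtype PBS hippocampus (SD, n = 3 each; adjusted p = 0.0162). In prefrontal cortex 1 of 16 tested was called, Irf8 at 4.62 ± 0.18 FPKM in 5xFAD PBS and 1.45 ± 0.47 FPKM in wildtype PBS mice (SD, n = 3 each; adjusted p = 0.0011). No gene of the list was called between 5xFAD HM-EVs and 5xFAD PBS mice in either tissue, and Irf8 was called higher in 5xFAD HM-EVs than in wildtype PBS mice in both.

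The list of partners held 17 genes for Atg8 conjugation, which IRG and GBP loading needs, and for inflammasomes. In hippocampus 2 of 16 tested were called higher in 5xFAD PBS mice, Casp4 and Gsdmd. Nlrp3, too low to be tested, and Aim2, not called, were also higher without overlap. They averaged 0.484 and 0.591 FPKM in 5xFAD PBS and 0.160 and 0.335 FPKM in wildtype PBS hippocampus. Casp1, Il1b and Il18 overlapped between these groups. Casp4, which encodes caspase-11, the sensor of cytosolic lipopolysaccharide, averaged 1.16 ± 0.33 FPKM in 5xFAD PBS and 0.194 ± 0.042 FPKM in wildtype PBS hippocampus (SD, n = 3 each; adjusted p = 0.0043). Gsdmd, the pore-forming protein it cleaves, averaged 2.35 ± 0.21 FPKM in 5xFAD PBS and 0.943 ± 0.114 FPKM in wildtype PBS hippocampus (SD, n = 3 each; adjusted p = 0.0017). Casp4 was the 1 gene of 15 tested that was called in prefrontal cortex, at 0.825 ± 0.160 FPKM in 5xFAD PBS and 0.244 ± 0.10 FPKM in wildtype PBS mice (SD, n = 3 each; adjusted p = 0.0163). The median of the list was 0.05 in hippocampus and 0.01 in prefrontal cortex on the log2 scale, and no gene of it was called between 5xFAD HM-EVs and 5xFAD PBS mice. Both Casp4 and Gsdmd were called higher in 5xFAD HM-EVs than in wildtype PBS hippocampus.

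Of 30 further family symbols looked for, 19 were in the table and most were too low to test. In hippocampus 7 were tested and 1 was called higher in 5xFAD PBS mice, Gm4951, at 0.942 ± 0.486 FPKM in 5xFAD PBS and 0.109 ± 0.029 FPKM in wildtype PBS mice (SD, n = 3 each; adjusted p = 0.0457). The median of the 7 was 1.07 on the log2 scale. Irgq, a divergent member of the IRG family, was the 1 of the 7 with a difference below 0 (-0.27, adjusted p = 0.162). In prefrontal cortex 5 were tested and none was called, with a median of 0.46, and none was called between 5xFAD HM-EVs and 5xFAD PBS mice in either tissue.

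Outside the families, genes whose pattern over the 18 libraries was among the most like the mean of the 10 were Phf11b (r = 0.961), Parp9 (r = 0.946), Psmb8 (r = 0.932) and Ifit3 (r = 0.924), out of 11717 genes ranked. The likeness is a description over libraries that span the groups. Psmb8, a subunit of the immunoproteasome, averaged 11.7 ± 5.3 FPKM in 5xFAD HM-EVs, 17.5 ± 5.4 FPKM in 5xFAD PBS and 4.52 ± 0.42 FPKM in wildtype PBS hippocampus (SD, n = 3 each). Ifit3, an interferon-induced antiviral protein, averaged 13 ± 4.7 FPKM in 5xFAD HM-EVs, 23.4 ± 5.7 FPKM in 5xFAD PBS and 6.45 ± 1.59 FPKM in wildtype PBS hippocampus (SD, n = 3 each). In both genes the mean of 5xFAD HM-EVs mice lay between those of 5xFAD PBS and wildtype PBS mice. Both were picked for their likeness to the GTPases over the same libraries, so this order is not a separate result. None of these 4 genes was called between 5xFAD HM-EVs and 5xFAD PBS mice in either tissue.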

How the data were processed

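The authors deposited 1 table of FPKM values per gene for the 18 libraries of total RNA. Reads were handled with fastp, HISAT2 and HTSeq on GRCm39, per the submitters' processing notes; their versions and strand settings are not given. Every value of the 18683 genes was a whole multiple of 1 read's worth (relative tolerance 1e-06), which gave the reads per gene used for depths and for voom.

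Values were tested with limma 3.58.1 in R 4.3.3 on log2(FPKM + 0.5) with an intensity trend, 2-sided, on genes reaching 0.5 FPKM in 3 or more libraries of the fit, and adjusted by Benjamini-Hochberg over all genes tested, with calls at 0.05. A log2 difference on this scale understates the change of low genes. Each tissue's 9 libraries were fitted together. Comparisons between tissues used all 18. Groups came from the sample titles. The 10 genes were described in every comparison; other genes were named where called between genotypes, as Ifng and Irf1, or as the 5 most like the mean profile among genes with a mean of at least 1 FPKM, of which 1 is not reported here. The 10 genes were picked by a rule on names that uses no measured value, but they, the lists and the markers were all chosen with earlier results of these data known. The step was tested on simulated data. In the prefrontal genotype groups same-numbered libraries deviated together (r = 0.213, 0.509 and 0.169), although replicate 1 had its highest r with number 3. A pairing by number there would rest on these values, as the labels state none.

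Alternatives were the pseudocount, filter, scaling, trend, samples in the fit, replicate block, voom and leaving out each library. Promoter windows came from RefSeq on GRCm38.p6.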

Additional observations from a re-analysis of the deposited data

How the results depend on the processing

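Numbers here count how many of the 10 GTPases were called, without the share of all genes called in the same setting. For 5xFAD PBS against wildtype PBS prefrontal cortex (1 called), quantile normalization gave 0, no intensity trend gave 2, the replicate block gave 1 and leaving out a library gave 0 to 3. For the same groups in hippocampus (4 called), no filter gave 1, quantile normalization 2, only the 2 groups in the fit 8, the replicate block 3, voom 3 and leaving out a library 1 to 3; Tgtp1 was called in all 9 other settings, with log2 differences of 1.86 to 3.46. In 5xFAD HM-EVs against wildtype PBS hippocampus (0 called), leaving out a library gave 0 to 1. Hippocampus against prefrontal cortex gave 0 to 1 in wildtype PBS mice (0 called) and 1 to 5 in 5xFAD PBS mice (4 called) with a library left out. In 5xFAD HM-EVs mice (0 called) it gave 1 with the replicate block and 0 to 4 with a library left out. Outside the prefrontal genotype groups, the deviations of same-numbered libraries had r of 0.381, 0.495 and 0.0118 between the tissues of 5xFAD PBS mice. Every other comparison held a negative r. The labels state no pairing, so the block in these comparisons rests on a shared number only. The block changed no other count by over 1.5 times. Some vesicle differences turned above 0 when a library was left out: Gbp2 (-0.23 to 0.043) and Gbp5 (-0.17 to 0.019) in prefrontal cortex, and Gbp7 (-0.32 to 0.0034), Igtp (-0.87 to 0.30) and Iigp1 (-0.94 to 0.094) in hippocampus. Against wildtype PBS prefrontal cortex, quantile normalization turned 5xFAD HM-EVs differences below 0 for Gbp3 (-0.031), Gbp7 (-0.047), Ifi47 (-0.032) and Irgm2 (-0.036). Leaving out a library there gave -0.069 to 0.29 for Gbp3 and -0.0042 to 0.23 for Irgm2, both below 0 without wildtype PBS replicate 3. The causes were not tested. With 3 libraries a group, the spread between libraries limits what these tests can show, and Tgtp1 rests on as few as 20 reads in a library.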
